A study of Homo sapiens with 9 samples.

Results

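Subtelomeric CUT&Tag peaks are described here, defined as listed peaks on chromosomes 1 to 22 whose summit lies less than 1 Mb from position 0 or from the last base of the chromosome in the hg19 assembly. The rule uses position alone and no score. It gave 895 of the 25310 autosomal peaks in 3 lists: 234 of 6592 HA-BAZ2B peaks, 558 of 16390 H3K4me3 peaks and 103 of 2328 WT peaks. All came from A549, a human lung adenocarcinoma cell line. The first group was A549 cells with an HA epitope inserted at the 5' end of the endogenous BAZ2B gene, profiled with an anti-HA antibody (HA-BAZ2B). The second was the same tagged cells profiled with an antibody to H3K4me3. The third was wild type A549 cells without the tag, profiled with the anti-HA antibody (WT), which therefore give the background of that antibody. Each group had 3 replicates and 1 list, and Drosophila spike-in chromatin (35 ng) was added to all. The labels' protocols also name an siRNA transfection without saying which libraries, if any, received it, and the sources used here do not say whether the tagged line is 1 clone. Of the H3K4me3 libraries, 2 have an antibody label ending in another digit, and their titles were followed.

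Human chromosomes end in long arrays of the repeat TTAGGG, whose G-rich strand can fold into G-quadruplexes, and the series title places BAZ2-dependent remodeling in the control of such structures. Between the repeats and unique sequence lie subtelomeres, patchworks of blocks that are duplicated among chromosome ends, followed in many arms by gene-dense DNA. BAZ2B is a bromodomain protein that pairs with ISWI-type remodeling ATPases, and H3K4me3 marks active promoters. In the hg19 assembly most ends begin with a gap of unknown bases, and the outermost known sequence at several of them is telomeric repeat. These points are background: neither the sequence of the peaks nor the genes at them were looked up, since no sequence or annotation of that build was used.

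The subtelomeres were dense in peaks of all 3 lists. The 44 outermost megabases make up 1.53% of the autosomes and held 3.55% of HA-BAZ2B peaks (95% interval 3.12 to 4.03%), 3.40% of H3K4me3 peaks (3.13 to 3.69%) and 4.42% of WT peaks (3.63 to 5.34%). In peaks per Mb, HA-BAZ2B had 5.32 in the subtelomeres against 2.24 in the rest of the autosomes, H3K4me3 12.7 against 5.58, and WT 2.34 against 0.784. The densities were thus 2.37, 2.27 and 2.98 times those elsewhere, so the HA-BAZ2B ratio stood near that of H3K4me3. Lengths are full assembly lengths with gaps of unknown bases included, in both parts, so these are not densities over mappable sequence. Intervals are exact binomial (Clopper-Pearson) intervals that cover counting error over peaks only. Every score is that of 1 library and neighbouring peaks are not replicates, so no test between conditions or between parts of the genome was made.

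HA-BAZ2B lay on subtelomeric H3K4me3 peaks about as often as on others. Of the 558 subtelomeric H3K4me3 peaks, 231 carried an HA-BAZ2B peak (41.4%, 37.3 to 45.6%), against 6298 of 15832 elsewhere (39.8%, 39.0 to 40.5%), and over all autosomal H3K4me3 peaks the share was 39.8%. WT peaks lay on 92 subtelomeric H3K4me3 peaks (16.5%, 13.5 to 19.8%), against 2085 elsewhere (13.2%, 12.6 to 13.7%), with 13.3% over all autosomes. The intervals overlapped for HA-BAZ2B and for WT. By class, 77 subtelomeric H3K4me3 peaks carried both anti-HA lists (13.8%, against 11.4% elsewhere) and 154 HA-BAZ2B only (27.6%, against 28.4%). WT only was carried by 15, and neither list by 312 (55.9%, against 58.5%). The WT-only class made up 2.69% in the subtelomeres (1.51 to 4.40%) and 1.76% elsewhere (1.56 to 1.98%).

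Nearly every subtelomeric HA-BAZ2B peak sat on H3K4me3: 232 of 234 did (99.1%, 96.9 to 99.9%), with 99.0% over all autosomes. There were 2 exceptions, both of low fold enrichment. One lay at 16q24.3 (chromosome 16, 89988439 to 89988801), 366 kb from the end, with a fold enrichment of 3.12 over the peak caller's background. The other lay at 20q13.33 (chromosome 20, 62313997 to 62314383), 711 kb from the end, with 3.96. A WT peak was present at 79 of the 234 HA-BAZ2B members (33.8%, 27.7 to 40.2%), against 1829 of 6358 elsewhere (28.8%, 27.7 to 29.9%) and 28.9% over all autosomes. In the other direction, 78 of 103 WT members overlapped an HA-BAZ2B peak (75.7%, 66.3 to 83.6%), against 81.8% elsewhere (80.1 to 83.3%) and 81.5% over all autosomes. WT members lay on H3K4me3 in 91 of 103 cases (88.3%, 80.5 to 93.8%), against 93.98% elsewhere (92.9 to 94.9%) and 93.7% over all autosomes.

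The HA-BAZ2B share climbed with the strength of the H3K4me3 peak, and the WT share did so less evenly outside the subtelomeres. All autosomal H3K4me3 peaks were ranked by −log10 q, the significance the peak caller assigned, and divided into 4 strength groups of equal size. In group 1, the weakest, 11.97% of subtelomeric peaks carried HA-BAZ2B (6.70 to 19.3%), against 12.3% elsewhere (11.3 to 13.3%). In group 2 the values were 29.5% (22.1 to 37.8%) and 28.5% (27.1 to 29.9%), and in group 3 they were 51.4% (43.0 to 59.6%) and 48.6% (47.0 to 50.2%). In group 4, the strongest, they were 64.9% (56.8 to 72.4%) in the subtelomeres and 70.1% (68.6 to 71.5%) elsewhere. The subtelomeric and the other interval overlapped in all 4 groups. For WT they did not meet in group 2, with 12.9% in the subtelomeres (7.86 to 19.7%), against 6.92% elsewhere (6.15 to 7.76%). Without the peaks under 20 kb from an end, a limit chosen after the positions had been seen, the subtelomeric WT share of group 2 was 11.0% (6.31 to 17.5%), and the intervals then overlapped. In the other groups they overlapped throughout: WT had 10.3% against 7.89% in group 1, 18.9% (13.0 to 26.2%) against 12.7% (11.7 to 13.8%) in group 3, and 22.1% against 25.2% in group 4.

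**Figure D1:**
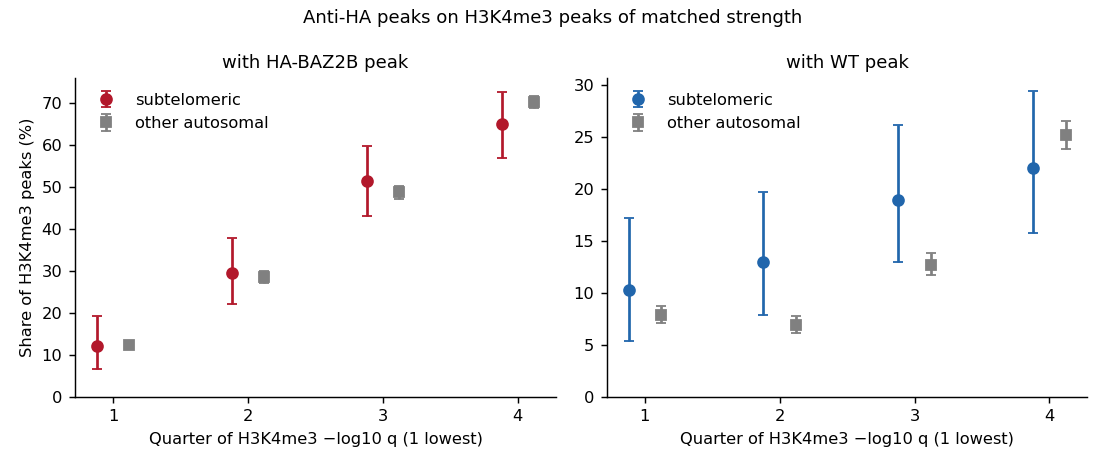
Percentage of H3K4me3 peaks that carry an HA-BAZ2B peak (left) or a WT peak (right), in 4 groups of H3K4me3 −log10 q of equal size, weakest (1) to strongest (4); coloured circles are subtelomeric peaks, grey squares all other autosomal peaks, and bars are exact 95% binomial intervals. The HA-BAZ2B shares of both regions climb together, to 64.9% in the subtelomeres and 70.1% elsewhere, while for WT the bars of the 2 regions do not meet in group 2.

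Along the last megabase the WT share was highest nearest the ends, while every HA-BAZ2B interval included the share found elsewhere. With H3K4me3 peaks binned by distance from the end, HA-BAZ2B was present on 50% of those under 100 kb (24 of 48, 35.2 to 64.8%), 47.1% from 100 to 250 kb (35.1 to 59.4%), 43.6% from 250 to 500 kb (35.5 to 52.0%) and 37.5% from 500 kb to 1 Mb (31.9 to 43.3%). Each of these intervals overlapped that of the next bin, and all included the 39.8% found outside the subtelomeres. WT was present on 39.6% under 100 kb (19 of 48, 25.8 to 54.7%), then on 17.1% (9.18 to 28.0%), 13.4% (8.40 to 19.97%) and 14.1% (10.3 to 18.6%). The interval of the first WT bin lay above the 13.2% found outside the subtelomeres. That bin held the 10 H3K4me3 peaks under 20 kb, a limit chosen after the positions had been seen, all with a WT peak. From 20 to 100 kb the WT share was 23.7% (9 of 38, 11.4 to 40.2%), still above 13.2%, though this wide interval includes it.

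**Figure D2:**
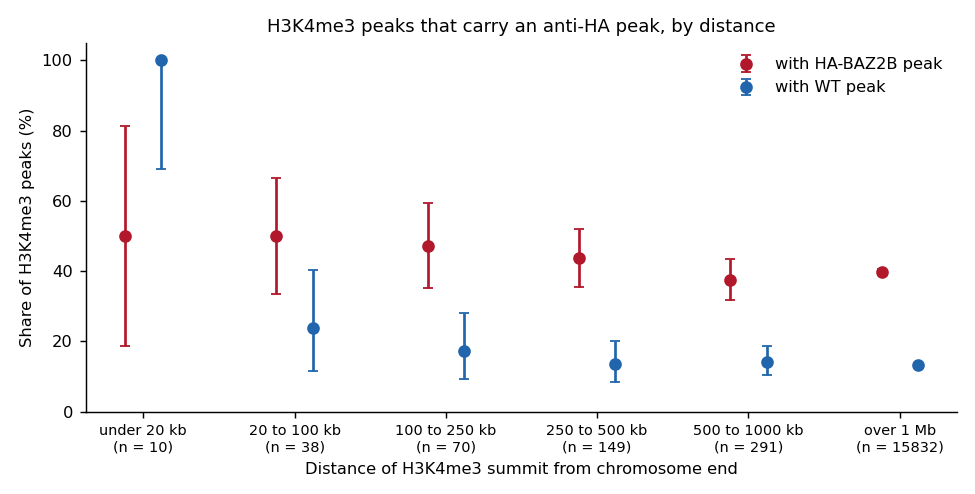
Percentage of H3K4me3 peaks that an HA-BAZ2B peak (red) or a WT peak (blue) overlaps, by distance of the H3K4me3 summit from the chromosome end; the first bin is parted at 20 kb, n gives the H3K4me3 peaks per bin, and bars are exact 95% binomial intervals. All 10 H3K4me3 peaks under 20 kb carry a WT peak and 5 of them an HA-BAZ2B peak, while beyond 250 kb the WT share is 13.4 to 14.1%.

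A group of peaks stood nearest the chromosome ends, apart from the next ones inward. All 3 lists had peaks with summits 10.1 to 11.5 kb from an end, and the next summit inward was at 29.2 kb for HA-BAZ2B, 29.1 kb for H3K4me3 and 33.9 kb for WT. These distances include any gap of unknown bases at the end, and gap lengths were not looked up. An end whose gap exceeds 20 kb could have no peak in this group. There were 5 such peaks in the HA-BAZ2B list, 10 in the H3K4me3 list and 11 in the WT list, spread over 11 ends. WT had a peak at every one of these ends (1p, 1q, 4p, 5p, 7p, 9p, 10q, 12q, 15q, 18p and 21q), H3K4me3 at all but 9p, and HA-BAZ2B at 1p, 1q, 5p, 12q and 18p. Of the distance bins, it was the one in which the WT list was longer than the HA-BAZ2B list, although over all autosomes it was the shorter.

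Since no common scale ties the libraries together, the fold enrichments of a site are given side by side and no order between lists is read from them. At 12q24.33, the HA-BAZ2B peak (chromosome 12, 133841530 to 133841899) was enriched 8.89-fold with a −log10 q of 11.6. On the same place H3K4me3 was enriched 21.6-fold with a −log10 q of 86.8, and WT (133841400 to 133842008) 24.2 and 176. This WT peak had the highest fold enrichment of all 2328 autosomal WT peaks, and the H3K4me3 peak the second highest of its list, whereas the HA-BAZ2B peak ranked 2603 of 6592.

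Both ends of chromosome 1 had a terminal peak in all 3 lists. At 1p36.33 the HA-BAZ2B peak (chromosome 1, 10000 to 10383) was enriched 6.41-fold, H3K4me3 16.1 and WT (9875 to 10494) 18.2. At 1q44 the HA-BAZ2B peak (249240032 to 249240351) had 6.52, H3K4me3 15.1 and WT (249239877 to 249240601) 18.2. These WT peaks ranked 6 and 7 in their list by fold enrichment. At 18p11.32 HA-BAZ2B had 4.81, H3K4me3 11.8 and WT 15.7 (chromosome 18, 9897 to 10551). The site at 5p15.33 was different in shape: its peaks were broad in all 3 lists, with widths of 1580 bp in HA-BAZ2B, 1767 bp in H3K4me3 and 1811 bp in WT, with fold enrichments of 6.05, 6.67 and 6.99.

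The remaining 6 ends had a WT peak and no listed HA-BAZ2B peak. Of the 11 terminal WT peaks, 5 overlapped an HA-BAZ2B peak (45.5%, 16.7 to 76.6%), against 81.5% of all autosomal WT peaks. The WT fold enrichment was 17.8 at 7p22.3 (chromosome 7, 9849 to 10310), 13.4 at 15q26.3 (chromosome 15, 102521049 to 102521534), 13.2 at 4p16.3 (chromosome 4, 9878 to 10415) and 10.9 at 10q26.3 (chromosome 10, 135523975 to 135524888). It was 8.10 at 21q22.3 (chromosome 21, 48118813 to 48119913) and 4.01 at 9p24.3 (chromosome 9, 10413 to 10772). H3K4me3 at these places had 9.43 at 7p, 10.2 at 15q, 15.1 at 4p, 9.56 at 10q and 13.6 at 21q. A site without a listed HA-BAZ2B peak may hold one that was not seen in 2 replicates.

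Within its own list each group of terminal peaks held another position. The 5 HA-BAZ2B peaks ranked from 84.4 to 96.2% of the way down theirs by −log10 q (median 91.2%), and from 39.5 to 91.9% by fold enrichment (median 76.8%). Of the 11 WT peaks, 5 were in the top 1% of the WT list by −log10 q and 6 by fold enrichment, and the median position was 1.07% by −log10 q and 0.773% by fold enrichment. For the 10 H3K4me3 peaks the positions ran from 1.98 to 85.9% by −log10 q (median 57.9%), while by fold enrichment the median was 12.9% and 5 of the 10 were in the top 10%. These positions place a peak within one library and do not measure a change between libraries.

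**Figure D3:**
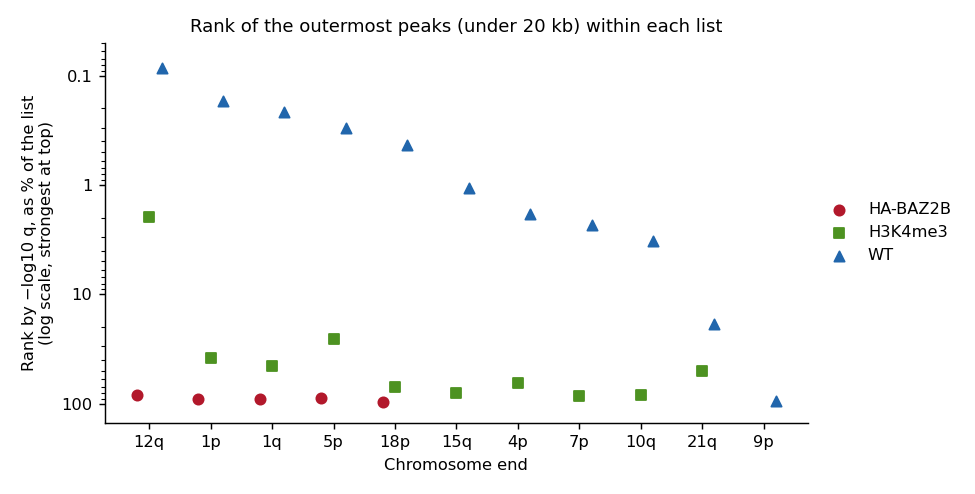
Rank of each peak under 20 kb from an end by −log10 q, as a percentage of its own list (log scale, strongest at the top), for the 11 chromosome ends ordered by the WT rank; red circles are HA-BAZ2B, green squares H3K4me3, blue triangles WT, and a missing symbol means no listed peak. The WT peaks of 12q, 1p, 1q, 5p and 18p are in the top 1% of their list, while the HA-BAZ2B peaks of the same ends lie at 84.4 to 96.2% of theirs.

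Widths at these sites also stood apart from those in the rest of the megabase. Where 1 HA-BAZ2B peak matched 1 WT peak, the median ratio of their widths, HA-BAZ2B over WT, was 0.608 at the 5 terminal sites, 2.01 at the 69 sites from 20 kb to 1 Mb, and 1.91 at the 1791 sites elsewhere. Matched with H3K4me3, HA-BAZ2B peaks were 0.632 times as wide at the 5 terminal sites, against 0.930 times at 213 other subtelomeric sites. WT peaks were 1.13 times as wide as their H3K4me3 peaks at 10 terminal sites, against 0.510 times at 77 other subtelomeric sites. Summits at the terminal sites were close, with a median of 27 bp between HA-BAZ2B and H3K4me3, 29 bp between WT and H3K4me3 and 57 bp between HA-BAZ2B and WT.

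Inward of 20 kb the shares of H3K4me3 peaks with an anti-HA peak had intervals that overlapped those elsewhere. The share of H3K4me3 peaks with HA-BAZ2B was 41.2% there (226 of 548, 37.1 to 45.5%) and that with WT 14.96% (82 of 548, 12.1 to 18.2%). H3K4me3 peaks that carried WT also carried HA-BAZ2B in 72 of 82 cases (87.8%, 78.7 to 94.0%), against 86.6% outside the subtelomeres (85.1 to 88.1%). Those without WT carried HA-BAZ2B in 33.0% (28.8 to 37.5%), against 32.7% (31.9 to 33.5%). Across one-to-one pairs of HA-BAZ2B and H3K4me3 peaks, the Spearman rho of fold enrichment was 0.76 over 213 pairs from 20 kb to 1 Mb and 0.74 over 6149 pairs elsewhere. For WT and H3K4me3 it was 0.54 over 77 pairs, against 0.20 over 2073, while rho of width was 0.01 against 0.37. The points of each rho come from the same 2 libraries and are given without a p.

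By assembly position, the strongest HA-BAZ2B members lay 29.2 kb or more from an end. Gaps of unknown bases count in these distances, so how far each peak lay from the first known base was not measured. At 1p36.33 (chromosome 1, 28812 to 29551), 29.2 kb from the end, HA-BAZ2B was enriched 17.1-fold and H3K4me3 16.3-fold, with no WT peak. The next were at 10q26.3 (chromosome 10, 135462072 to 135462802; 72.3 kb from the end), with 16.3 for HA-BAZ2B and 14.6 for H3K4me3, and at 16p13.3 (chromosome 16, 60026 to 60745; 60.3 kb), with 16.2 and 12.7, again with no WT peak. At 15q26.3 (chromosome 15, 102263971 to 102264741; 267 kb) HA-BAZ2B had 16.0, H3K4me3 16.9 and WT 9.02. At 4q35.2, the band of the D4Z4 repeat known from facioscapulohumeral muscular dystrophy, HA-BAZ2B had 15.5 at one site (chromosome 4, 190959053 to 190959618; 195 kb) on an H3K4me3 peak of 18.2 with no WT peak. Strong H3K4me3 members without any anti-HA peak also occurred. At 12q24.33 (chromosome 12, 133758003 to 133758625; 93.6 kb from the end) H3K4me3 had 18.1, and at 13q34 (chromosome 13, 115000255 to 115001070; 169 kb) 17.7, which with the terminal 12q peak and those at 4q35.2 and 15q26.3 are the 5 highest H3K4me3 members. In all, 6 of the 65 HA-BAZ2B peaks in the top 1% by fold enrichment were subtelomeric (9.23%, 3.46 to 19.02%). That interval includes the 3.55% of the whole autosomal HA-BAZ2B list. Among the top H3K4me3 peaks, 8 of 163 were members (4.91%, 2.14 to 9.44%), an interval that includes the 3.40% of that list. In the WT list 9 of 23 were (39.1%, 19.7 to 61.5%), an interval above the 4.42% of all its autosomal peaks. Of these 9 WT peaks, 6 lay under 20 kb from an end.

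The most significant HA-BAZ2B peak of the autosomes was also a member, picked out after its value had been seen. It lay at 2p25.3 (chromosome 2, 740001 to 740973), 741 kb from the end, with a −log10 q of 104 and a fold enrichment of 14.7. H3K4me3 had its own highest autosomal −log10 q there, 229, with a fold enrichment of 13.5. WT had a peak there too, with a −log10 q of 37.7 and a fold enrichment of 13.3.

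**Figure D4:**
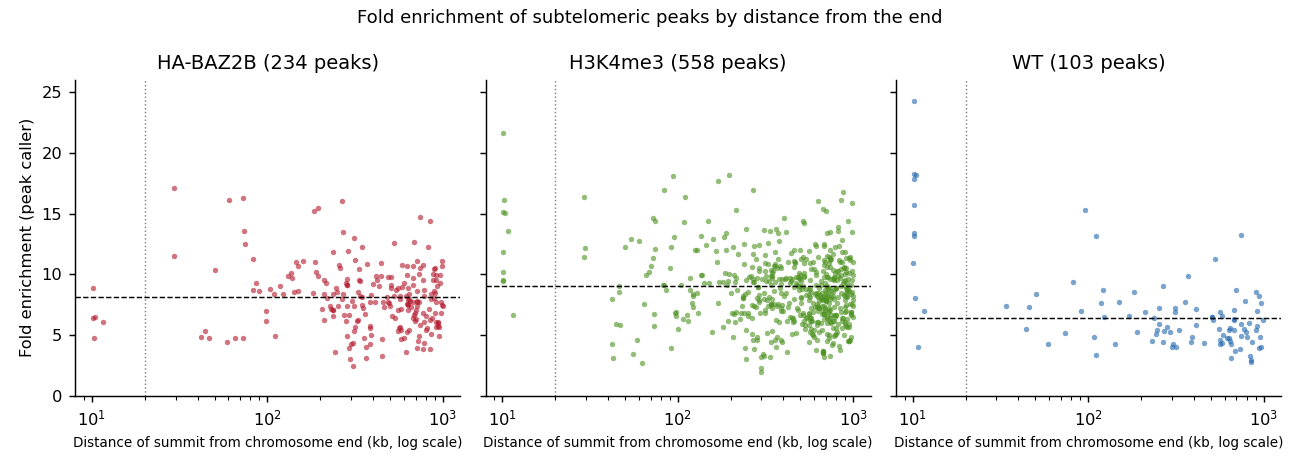
Fold enrichment of each subtelomeric peak, as the peak caller gave it, against the distance of its summit from the chromosome end (kb, log scale), in the HA-BAZ2B, H3K4me3 and WT lists; the dashed line is the median of the other autosomal peaks of that list and the dotted line marks 20 kb. In the HA-BAZ2B list the peaks near 10 kb reach 8.89 and the highest member, 17.1, lies at 29.2 kb, while in the WT list the highest member, 24.2, is one of those near 10 kb.

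Between 20 and 100 kb from an end there were 19 HA-BAZ2B peaks, 6 of them with a WT peak (31.6%, 12.6 to 56.6%). Over all autosomal HA-BAZ2B peaks that share was 28.9%, which the interval includes. Fold enrichment ran from 4.40 to 17.1. The long arm of chromosome 19 alone had 5 HA-BAZ2B peaks in its outermost 100 kb and 3 WT peaks. Examples with no WT peak were 15q26.3 (chromosome 15, 102501448 to 102502553; 11.5), 21q22.3 (chromosome 21, 48055216 to 48056156; 13.6) and 12p13.33 (chromosome 12, 73959 to 75102; 12.5), at 29.3, 74.1 and 74.7 kb from the end. The one WT member of this stretch that reached the top 1% of its list by fold enrichment was at 12p13.33 (chromosome 12, 95016 to 95804), with 15.3 for WT and 13.1 for H3K4me3 and no HA-BAZ2B peak. At 4q35.2, 110 kb from the end, HA-BAZ2B had 4.97, H3K4me3 16.4 and WT 13.2 (chromosome 4, 191043338 to 191044395 in WT).

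For HA-BAZ2B the medians of members and of other peaks had overlapping intervals, while some of H3K4me3 and WT did not. HA-BAZ2B members had a median fold enrichment of 7.92 (95% interval of the median 7.55 to 8.35), against 8.16 elsewhere (8.08 to 8.25), and a median width of 1262 bp (1200 to 1337), against 1217 bp (1201 to 1235). H3K4me3 members had 8.48 (8.21 to 8.82), against 9.08 (9.02 to 9.14), and a width of 1226.5 bp (1155 to 1290), against 1132 bp (1123 to 1142). WT members had 5.95 (5.42 to 6.47), against 6.43 (6.36 to 6.52), and 680 bp (609 to 751), against 639 bp (627 to 655). H3K4me3 members were thus slightly wider and lower than other H3K4me3 peaks, with intervals that did not meet. The 11 outermost WT members had a median fold enrichment of 13.4 (6.99 to 18.2), while those from 20 kb inward had 5.55 (5.30 to 6.25), an interval below that of WT peaks elsewhere. The median −log10 q was 28.7 (26.7 to 32.004) for HA-BAZ2B members, against 28.6 elsewhere (28.2 to 29.1), and 45.04 (42.2 to 48.4) for H3K4me3 members, against 42.2 (41.6 to 42.7). For WT it was 13.6 (12.2 to 16.8), against 10.2 elsewhere (9.94 to 10.6), and 12.7 (11.5 to 15.5) without the outermost members, in both cases an interval above that elsewhere.

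WT members with no HA-BAZ2B peak numbered 25 of 103, against 406 of 2225 WT peaks elsewhere, and 6 of the 25 were the terminal ones. Those with no H3K4me3 peak numbered 12 of 103, against 134 of 2225 elsewhere. An HA-BAZ2B peak was present at 75.7% of WT members and 81.5% of all autosomal WT peaks, and H3K4me3 at 88.3 and 93.7%. Of the 25, 13 lay on H3K4me3 and 12 did not, and those 12 were all the WT members outside H3K4me3. The 5 highest by fold enrichment were the terminal peaks at 7p, 15q, 4p and 10q and the 12p peak. A cluster of 3 such WT peaks lay at 1p36.33, 565 to 568 kb from the end (chromosome 1, 564717 to 565331, 565968 to 566728 and 567273 to 567835), with fold enrichments of 4.57, 4.30 and 6.90 and −log10 q of 31.9, 27.9 and 73.1. Of these, the last overlapped an H3K4me3 peak, of fold enrichment 6.50. That band is known to carry a nuclear copy of mitochondrial DNA, whose position was not looked up here. At 18p11.32 a neighbouring pair (chromosome 18, 107854 to 109364 and 110180 to 110756) had fold enrichments of 4.82 and 3.35 without H3K4me3. Their −log10 q of 75.9 and 32.9 ranked 14 and 112 of the 2328 autosomal WT peaks.

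Members were unevenly spread over the chromosome ends. Of the 44 ends, 38 had an H3K4me3 member, 37 an HA-BAZ2B member and 34 a WT member, and 6 had none of any list: 3p and the short arms of the acrocentric chromosomes 13, 14, 15, 21 and 22, which are largely unassembled in this build. The 14q end had 2 H3K4me3 peaks and was the only end with H3K4me3 but no HA-BAZ2B member. The most populated were 19q (16 HA-BAZ2B, 37 H3K4me3 and 7 WT peaks), 11p (12, 34 and 8) and 16p, whose tip carries the alpha-globin genes (12, 32 and 5). The 10 ends with at least 20 H3K4me3 peaks held 120 HA-BAZ2B members, 285 H3K4me3 members and 45 WT members. HA-BAZ2B members outnumbered WT members at 32 ends and equalled them at 5, and at 0 ends were there more WT members. The HA-BAZ2B list is also the longer, with 6592 autosomal peaks against 2328, so these counts do not show more signal in tagged cells.

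**Figure D5:**
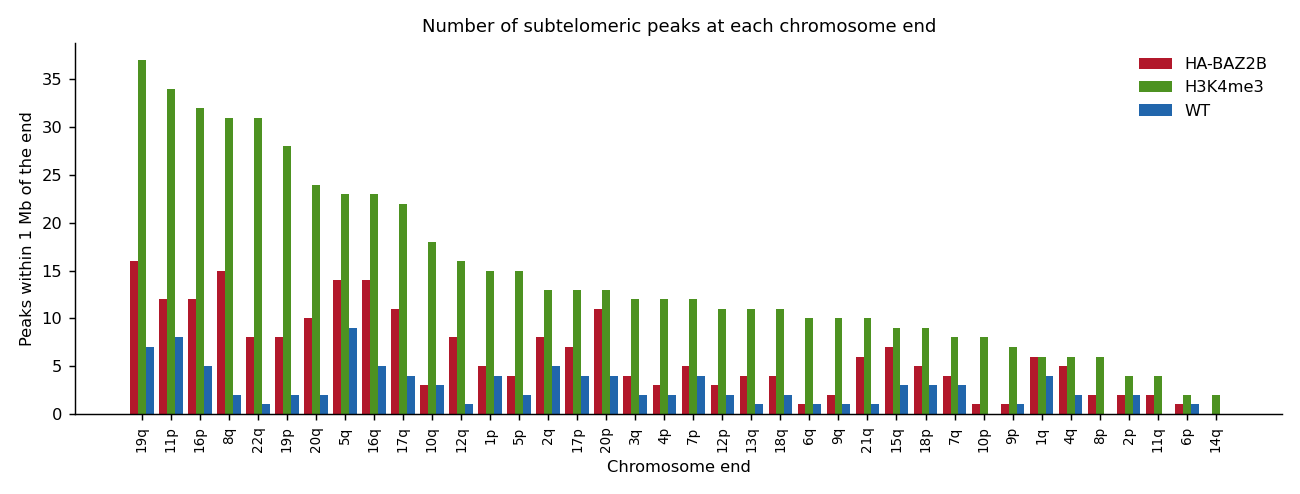
Number of subtelomeric peaks at each of the 38 chromosome ends with an H3K4me3 member, ordered by H3K4me3 number; red bars are HA-BAZ2B, green H3K4me3 and blue WT. The 19q end has the most of HA-BAZ2B (16) and H3K4me3 (37), and 11p the second most of H3K4me3 (34), while 14q has 2 H3K4me3 peaks and no anti-HA peak.

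The share of H3K4me3 peaks with HA-BAZ2B was also taken for each end. Among the 26 ends with at least 10 H3K4me3 peaks it ran from 16.7% at 10q (3 of 18, 3.58 to 41.4%) to 76.9% at 20p (10 of 13, 46.2 to 94.96%). At 17p it was 61.5% (8 of 13, 31.6 to 86.1%) and at 22q 25.8% (8 of 31, 11.9 to 44.6%). With so few peaks per end these intervals were wide. Those of 10q, 17p and 22q included the 39.8% over all autosomal H3K4me3 peaks, while that of 20p lay above it. At the 1q end, which had fewer than 10 H3K4me3 peaks, all 6 carried HA-BAZ2B (54.1 to 100%) and 4 carried WT. Short-arm ends together had 38.0% with HA-BAZ2B (84 of 221, 31.6 to 44.8%) and long-arm ends 43.6% (147 of 337, 38.3 to 49.1%), and for WT the shares were 15.8% (11.3 to 21.3%) and 16.9% (13.1 to 21.4%). Both HA-BAZ2B intervals included 39.8%, and both WT intervals the 13.3% over all autosomal H3K4me3 peaks.

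Subtelomeric ends share duplicated blocks, and the sources used here do not say how reads that match several places were treated. For the terminal and duplicated sites, a peak at one end cannot be told apart from signal of another end with the same sequence. The names of the H3K4me3 and WT source libraries carry a common tag that the HA-BAZ2B name lacks, so between HA-BAZ2B and WT the tagged line and whatever that name tag stands for cannot be told apart either.

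At the limit of 1 Mb, the nearest peaks on each side are given for each list. For HA-BAZ2B the last peak inside was at 3q29 (997.8 kb, fold enrichment 7.40) and the first outside at 6q27 (1013 kb, 7.82). For H3K4me3 they were at 9p24.3 (998.7 kb, 7.37) and 19q13.43 (1003 kb, 16.9), and for WT at 3q29 (997.04 kb, 6.22) and 17p13.3 (1014 kb, 5.21).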

How the data were processed

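CUT&Tag of 9 libraries (3 groups of 3 replicates, by sample title) was deposited as 1 peak list per group. The submitters' processing notes name Bowtie2 2.4.5, Picard, SAMtools 1.15.1, bedtools and MACS2 2.1.4, and the builds hg19 and dm6. The sources used here do not give MACS2 settings, read filters or the use of the spike-in. A listed peak occurred in at least 2 replicates and its row is that of the largest peak file, per the labels' protocols, so each value is that of 1 library. The deposited fold enrichment (a ratio over the caller's background) and the deposited −log10 q were ranked and summarised within a list only, and where values of several lists stand side by side no order between lists is read. The deposited whole-number score was not used. Positions are as the authors deposited them, printed from 1. Library depth is unknown, so peak numbers are not adjusted for it.

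Distances used hg19 chromosome lengths from GenomeInfoDb 1.38.1, and bands came from circlize 0.4.16. Peaks overlapped if they shared at least 1 bp. Shares have exact 95% binomial (Clopper-Pearson) intervals and medians exact order-statistic intervals. The share of numbered source peaks that were kept is not reported, since its spans near ends and elsewhere are not alike. No test was made, since there is 1 list per group. Code was tested on simulated intervals. The software was Python 3.11.15 with scipy 1.17.1, pandas 2.3.3 and numpy 2.4.6. Members, bins and named peaks were chosen with earlier results of these data known. Peaks named are the 5 members of highest fold enrichment per list, the HA-BAZ2B and WT members within 100 kb of an end (the highest in full, the rest by range), the 5 highest WT members without HA-BAZ2B, HA-BAZ2B members without H3K4me3, those nearest the limit, the 3 ends with most members and those with none. Others were picked after their values had been seen: the 2p25.3 peak, the 1p36.33 cluster, the 18p11.32 pair, the 4q35.2 peak at 110 kb, and the ends named for their share.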

Additional observations from a re-analysis of the deposited data

Results flagged for a closer look

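The ends of chromosome X lie outside the autosomal rule and were not part of the comparisons. Within 1 Mb of them the HA-BAZ2B list had 6 peaks, the H3K4me3 list 18 and the WT list 5. What brought them up is the count of 6 HA-BAZ2B peaks, against 5 WT peaks. The HA-BAZ2B list holds 7027 peaks in all and the WT list 2451, so the WT peaks are the larger share of their list and the count does not show more signal in tagged cells. Each list had 1 X peak under 20 kb, at the end of the long arm and 10.3 to 10.4 kb from it. There HA-BAZ2B was enriched 12.5-fold (−log10 q 22.6), H3K4me3 18.9-fold (81.6) and WT 18.8-fold (176). Both HA-BAZ2B values were above the highest of the 5 autosomal terminal HA-BAZ2B peaks, 8.89-fold and a −log10 q of 11.6, so this peak departed from those.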

How the results depend on the processing

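No paired analysis was possible because the lists carry no value per replicate, and no replicate could be left out. Of 87 alternative values for 15 results, 73 stayed within the 95% interval of the value reported and 14 did not. When an overlap had to cover 50% or more of a peak, H3K4me3 members with WT made up 9.32%, HA-BAZ2B members with WT 17.1% and WT members with HA-BAZ2B 65.0%. With 500 kb as the limit, H3K4me3 members with HA-BAZ2B made up 45.7%, and the medians were a fold enrichment of 6.89 for WT and 9.13 for H3K4me3 and a width of 1152 bp for H3K4me3. With 2 Mb as the limit, H3K4me3 members with WT made up 12.3% and HA-BAZ2B members with WT 27.4%. With the longer list of each pair limited to its most significant peaks, as many as the shorter has, H3K4me3 members with HA-BAZ2B made up 61.0% (of 254 left) and with WT 29.3% (of 82 left). With fewer H3K4me3 or HA-BAZ2B peaks left to overlap, the shares were 66.7% for HA-BAZ2B members on H3K4me3, 24.3% for WT members with HA-BAZ2B and 23.3% for WT members on H3K4me3. The cause of the other moves, these H3K4me3 shares included, was not tested. A minimum −log10 q of 5, membership by any base of the peak, and leaving out members under 100 kb or under 20 kb (the last chosen after seeing the data) moved none of the results they were run on outside its interval. Depth is unknown, and bins of 10 to 48 peaks leave wide intervals.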
